A study of Homo sapiens with 3 samples.

Results

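The 10 genes described here belong to blood clotting, to the vitamin K cycle that warfarin blocks, and to the platelet response to ADP: F5, F2, F7, F8, PROC, VKORC1, GGCX, CYP4F2, P2RY12 and P2RY1. They were chosen by name, among 20037 protein-coding genes placed on chromosomes 1 to 22, X and Y, and a peak was assigned to a gene when it overlapped the gene or the 1000 bp on either side. The study profiled Hep3B, an established human hepatocellular carcinoma line, by CUT&RUN, in which an antibody directs a nuclease to cut out the DNA near its target protein. The cells were grown in standard medium, with no treatment in the labels, and there were 3 libraries: 1 with an antibody against SOX4, 1 with an antibody against STAT6 and 1 with non-specific IgG, in which no transcription factor is targeted. SOX4 and STAT6 are transcription factors, of the HMG-box and the cytokine-activated STAT family, respectively. The submitters deposited a peak list for each of the SOX4 and STAT6 libraries, called against IgG, and the fold enrichment over IgG at the peak's summit was the measure used. With 1 library per antibody no value had a replicate check and no test between antibodies was made.

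Clotting proceeds as a chain of proteases that ends with thrombin, and most of its proteins are made by hepatocytes. Several of them, prothrombin, factor VII and protein C among the genes studied here, need vitamin K for the carboxylation that lets them bind membranes. Warfarin inhibits VKORC1, the enzyme that returns vitamin K to its reduced form. P2RY12 and P2RY1 are ADP receptors of platelets, blood cells that come from megakaryocytes and not from the liver. The comparison asked which of these genes lay under SOX4 or STAT6 peaks in a liver cancer line.

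Peaks of both lists lay on F5, VKORC1 and CYP4F2, and they covered a large share of each gene rather than its start alone. F8 held a single weak SOX4 peak. The clotting genes F2, F7 and PROC, the carboxylase GGCX and both platelet receptors had no peak in either list. Thus 4 of the 10 genes had a SOX4 peak, a share of 40%, against 6.35% of all protein-coding genes. For STAT6 it was 3 of the 10 genes, or 30%, against 1.08% of all protein-coding genes. The same 3 genes had peaks in both lists, against 1.03% of all protein-coding genes. The 10 genes were named with earlier results of these data known, so these shares describe them and carry no test.

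The 250 bases before the transcription start of the 3 genes with peaks in both lists are shown first, because those bases lay under a peak in each list. They are from RefSeq (GRCh38.p14) and are written 5′ to 3′ on the strand of the gene. The F5 window was chr1:169586482-169586731, the VKORC1 window chr16:31094798-31095047 and the CYP4F2 window chr19:15898075-15898324, all on the minus strand.
F5: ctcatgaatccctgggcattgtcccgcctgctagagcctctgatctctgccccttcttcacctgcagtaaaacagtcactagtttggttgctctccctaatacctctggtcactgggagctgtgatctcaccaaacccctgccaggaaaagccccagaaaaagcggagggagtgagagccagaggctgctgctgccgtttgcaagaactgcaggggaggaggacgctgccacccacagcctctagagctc
VKORC1: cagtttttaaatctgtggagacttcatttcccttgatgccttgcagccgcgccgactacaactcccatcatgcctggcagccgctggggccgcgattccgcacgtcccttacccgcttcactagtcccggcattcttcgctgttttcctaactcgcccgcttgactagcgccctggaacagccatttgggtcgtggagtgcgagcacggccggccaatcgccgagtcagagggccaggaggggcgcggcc
CYP4F2: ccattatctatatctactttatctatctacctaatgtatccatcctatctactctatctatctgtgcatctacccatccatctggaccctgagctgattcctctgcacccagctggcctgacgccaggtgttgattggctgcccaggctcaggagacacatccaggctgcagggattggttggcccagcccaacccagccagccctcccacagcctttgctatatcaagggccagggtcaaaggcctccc
SOX4 peaks covered 100% of these bases at each of the 3 genes. STAT6 peaks covered 86.4% of them at F5, 100% at VKORC1 and 79.6% at CYP4F2. Among 22199 windows of the same length before protein-coding starts, 155 (0.698%) touched a SOX4 peak, 91 (0.410%) a STAT6 peak and 88 (0.396%) both. The GC content of the windows was 56.8% at F5, 61.6% at VKORC1 and 53.6% at CYP4F2, beside a median of 62% over all of them. The windows of the other 7 genes touched no peak.

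These windows were searched on both strands for the core letters that SOX4 is known to bind, AACAAAG or AACAATG or ATCAAAG or ATCAATG or TACAAAG or TACAATG or TTCAAAG or TTCAATG. They were also searched for the palindromes TTCNNNNGAA, the form with 4 free bases that STAT6 prefers, and TTCNNNGAA. No such letters were found in the windows of F5, VKORC1 and CYP4F2, which says only that these letters were not in those 250 bases. Over all 22199 windows, 14.5% held a SOX4 core, 4.62% the palindrome with 4 free bases and 5.92% that with 3. Matches did occur before 2 of the genes that had no peak, GGCX at chr2:85561494-85561743 and P2RY12 at chr3:151384754-151385003, both on the minus strand. They are shown with the matched letters in capitals.
GGCX: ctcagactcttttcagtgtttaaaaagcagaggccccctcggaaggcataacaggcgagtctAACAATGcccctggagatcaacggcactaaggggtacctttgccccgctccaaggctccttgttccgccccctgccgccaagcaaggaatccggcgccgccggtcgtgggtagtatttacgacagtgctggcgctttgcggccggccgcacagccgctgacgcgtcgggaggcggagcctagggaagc
P2RY12: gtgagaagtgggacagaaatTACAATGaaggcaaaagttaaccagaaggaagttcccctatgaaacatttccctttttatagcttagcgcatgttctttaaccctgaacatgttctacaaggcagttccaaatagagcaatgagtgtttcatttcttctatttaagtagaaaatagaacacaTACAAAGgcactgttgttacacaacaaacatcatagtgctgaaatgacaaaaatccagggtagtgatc
With bases counted back from the start as negative numbers, the GGCX match began at -188 and those of P2RY12 at -230 and -68. A match is a description of the letters and not a binding site. At a further start of P2RY12 the letters TTCCTGGGAA, a palindrome with 4 free bases, began at -72, and no peak lay there either.

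F5 encodes factor V, which in its activated form is the cofactor that factor Xa needs to turn prothrombin into thrombin. The gene lies on the minus strand at chr1:169511951-169586481 and is 74.5 kb long. Of the 4513 peaks for SOX4, 16 fell on F5, and of the 1078 for STAT6, 22. SOX4 peaks covered 38411 bp of the gene, or 51.5%, and STAT6 peaks 16188 bp, or 21.7%. In stretches of equal length that began 5000 bp beyond each end of F5, the coverage was 0% in both lists and on both sides. The peaks ended close to the gene: they ran past its far end by 833 bp (SOX4) and 323 bp (STAT6) and past its start by 668 bp and 216 bp. SELP, which encodes the adhesion receptor P-selectin and lies 2.37 kb away, had no peak. Of the other protein-coding genes within 100 kb, the thiamine transporter gene SLC19A2 had none and CCDC181 had 1 SOX4 peak with a fold of 3.12.

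**Figure D1:**
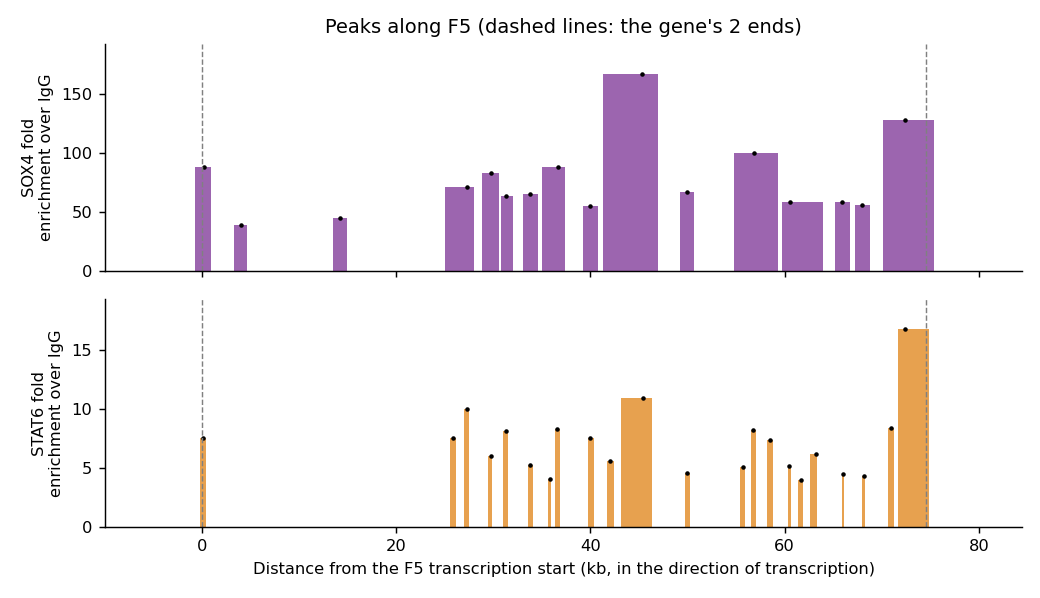
Peaks of the SOX4 list (upper panel) and of the STAT6 list (lower panel) along F5, by distance from the transcription start in kb (x axis) and fold enrichment over IgG (y axis). Each block spans a peak's width, dots are summits and dashed lines the gene's ends, and the blocks crowd the stretch from 25.1 kb to the far end in both panels.

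The SOX4 peaks in F5 were high within their list. Their fold enrichment ran from 39.4 to 167, with a median of 66.0, and they ranked between 33 and 639 among the 4513 peaks, whose median was 5.88. The 22 STAT6 peaks ran from 4.01 to 16.8, with a median of 6.78, and ranked between 64 and 831 of 1078 in a list with a median of 7.27. All 16 F5 peaks of the SOX4 list stood in its top 25%. Of the 22 for STAT6, 1 stood in the top 25%, 10 in the next 25%, 9 in the one after and 2 in the lowest 25%, so that their folds were spread around the middle of that list. Their widths differed as well, with medians of 1629.5 bp for SOX4 and 539 bp for STAT6.

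The highest SOX4 peak of F5 was also its widest. It lay at chr1:169539486-169545224, with a summit 45.3 kb from the start, and had a fold of 167. Next came the peak over the far end of the gene, chr1:169511118-169516365, with a fold of 128 at 72.4 kb. The order was the other way round for STAT6, where the far-end peak, chr1:169511628-169514766, had the highest fold of 16.8 and the peak at chr1:169540170-169543350 came second with 10.96. The transcription start held a SOX4 peak with a fold of 88.2, chr1:169585489-169587149, and a STAT6 peak with a fold of 7.51, chr1:169586067-169586697. The start of F5 was therefore neither empty nor the highest site in either list.

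The peaks were spread unevenly along F5. In the first 24.8 kb from the start, SOX4 peaks covered 15.2% of the bases, against 70.3% of the middle stretch of equal length and 69.1% of the last. For STAT6 the shares were 1.67%, 31.7% and 31.8%. The numbers of summits in these stretches were 3, 7 and 6 for SOX4 and 1, 10 and 11 for STAT6. The longest gap without a SOX4 peak was 10140 bp, from 14.9 kb to 25.1 kb. Without a STAT6 peak it was 25120 bp, from 0.415 kb to 25.5 kb. A further SOX4 gap of 8791 bp lay closer to the start. Over all 15 gaps between SOX4 peaks the median was 1201 bp, and over the 21 between STAT6 peaks it was 1469 bp.

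All 22 STAT6 peaks of F5 lay wholly inside SOX4 peaks, beside 76.6% of the 1078 STAT6 peaks in the whole list. Of the 16 SOX4 peaks, 8 held 1 STAT6 peak, 4 held 2, 2 held 3 and 2 held none. The 2 without a STAT6 peak were those with the lowest SOX4 folds, 39.4 at 4.02 kb and 45.3 at 14.2 kb from the start. For the 14 SOX4 peaks with a partner, the summits of the nearest STAT6 peaks were 1 to 187 bp away, with a median of 28 bp. Measured from each of the 22 STAT6 peaks, the SOX4 summit was 1 to 3262 bp away, with a median of 66.5 bp. It was within 200 bp for 14 of these 22. Both lists share the IgG control, so the 2 sets of positions are not independent.

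F5 was among the most densely covered long genes, which is a description only, since it was chosen with earlier results known. Counting F5, 7 protein-coding genes had at least 16 SOX4 peaks and 6 had at least 22 STAT6 peaks. Of the 4462 protein-coding genes that were as long as F5 or longer, 795 (17.8%) had a SOX4 peak and 59 (1.32%) a STAT6 peak. In each list only 2 of them, F5 included, had as large a share of their bases under peaks. By its definition this set has F5 as its shortest gene. Among protein-coding genes of any length, 62 had as large a share under SOX4 peaks and 70 under STAT6 peaks, F5 included. Among the 1272 genes with a SOX4 peak, 80.4% had 1 peak and the median share covered was 0.623%. Among the 216 genes with a STAT6 peak, 50% had 1 peak and the median share was 8.40%.

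VKORC1, the vitamin K epoxide reductase that warfarin inhibits, is a short gene of 3944 bp on the minus strand at chr16:31090854-31094797. A single SOX4 peak, chr16:31090063-31097352, covered all of it. That peak was 7290 bp wide, had a fold of 79.9 and ranked 421 in the list. STAT6 had 2 peaks there, chr16:31092141-31096769 with a fold of 14.5 and chr16:31090610-31091607 with a fold of 12.9, which left a gap of 533 bp between them. The stronger one had its summit next to the transcription start, at -0.006 kb, and together they covered 3411 bp, or 86.5% of the gene. The SOX4 peak ran 2555 bp past the start and 791 bp past the far end. VKORC1 was 1 of 26 protein-coding genes that SOX4 peaks covered by 100%, and 15 genes, VKORC1 among them, had as large a share under STAT6 peaks.

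LOC124903680, an annotated protein-coding locus 87 bp from VKORC1, lay wholly under the same peaks, so they cannot be assigned to VKORC1 alone. The other 10 protein-coding genes within 100 kb of VKORC1 had no peak in either list. They include PRSS53, a serine protease gene 1.91 kb away.

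CYP4F2, a cytochrome P450 that hydroxylates vitamin K and so removes it from the cycle, lies on the minus strand at chr19:15878023-15898074 and is 20052 bp long. It held 6 peaks in each list. SOX4 folds ran from 56.4 to 130, with a median of 73.2, and STAT6 folds from 4.74 to 13.9, with a median of 5.76. SOX4 peaks covered 11386 bp, or 56.8% of the gene, and STAT6 peaks 5395 bp, or 26.9%. Each SOX4 peak held 1 STAT6 peak, with the summits 9 to 111 bp apart and a median of 49 bp. The highest peaks were at the far end and at the start of the gene. At the far end, the SOX4 peak at chr19:15877277-15880671 had a fold of 130 and the STAT6 peak at chr19:15877727-15880197 a fold of 13.9. Over the start, chr19:15896713-15898796 had a fold of 101 for SOX4 and chr19:15897194-15898273 a fold of 10.0 for STAT6. Between 12.8 and 17.4 kb from the start lay the longest gap without a SOX4 peak, of 4569 bp.

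Unlike F5 and VKORC1, CYP4F2 lay among relatives that had peaks too. The flank of equal length on the lower-coordinate side was covered by 5.34% (SOX4) and 0% (STAT6), and that on the higher-coordinate side by 20.7% and 4.55%. CYP4F11, a P450 of the same subfamily 14.3 kb away, had 4 SOX4 peaks of up to 77.2 fold and 2 STAT6 peaks of up to 7.92 fold. The pseudogene CYP4F24P, 98.0 kb away, had 4 peaks in each list, and CYP4F36P, CYP4F9P and the pseudogene LOC124900424 also had peaks. These sequences are related, and how reads that match more than 1 place were treated is not given in the sources used here, so reads could have been shared among the copies. The olfactory receptor genes OR10H1, OR10H4 and OR10H5, which lie among them, had none.

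**Figure D2:**
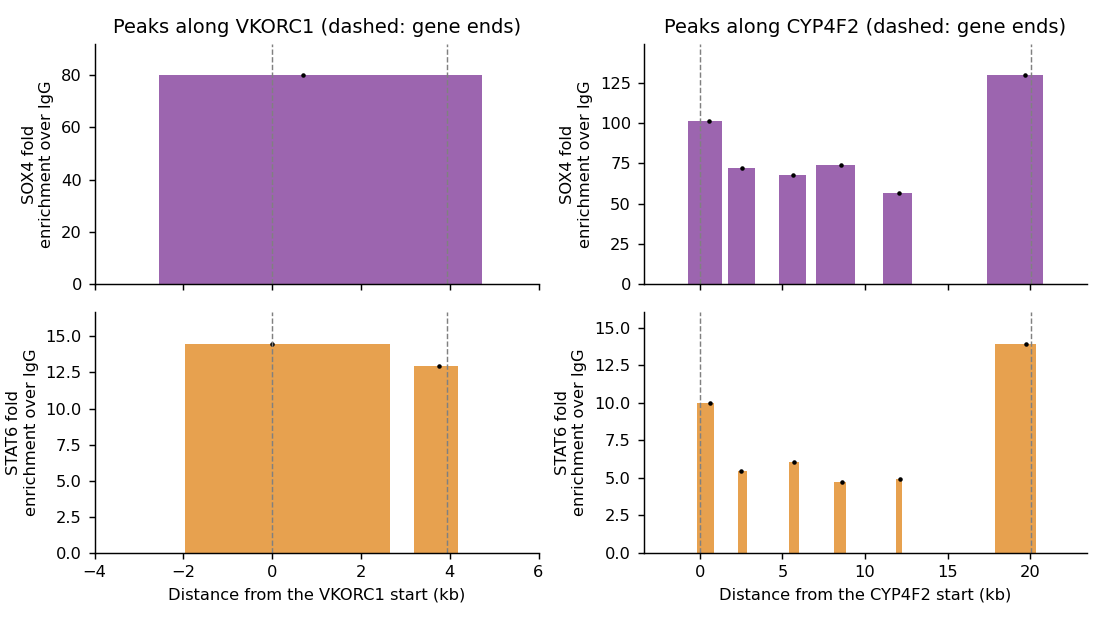
Peaks of the SOX4 list (upper panels) and of the STAT6 list (lower panels) at VKORC1 and CYP4F2, by distance from each gene's start in kb (x axis) and fold enrichment over IgG (y axis). Blocks span peak widths, dots are summits and dashed lines gene ends: the single SOX4 block spans all of VKORC1, and the 6 blocks of each list at CYP4F2 lie at matching places.

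The signal beyond the ends set F5 and VKORC1 apart from CYP4F2. In 10 kb windows outside F5, the only coverage besides the windows next to the gene was 2.82% under a SOX4 peak between 80 and 90 kb on the lower-coordinate side. VKORC1 had coverage only in the 10 kb next to each end, 25.55% (SOX4) and 19.72% (STAT6) on the side of its start. Around CYP4F2 the SOX4 coverage reached 54.45% at 20 to 30 kb on the side of its start, where CYP4F11 lies.

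**Figure D3:**
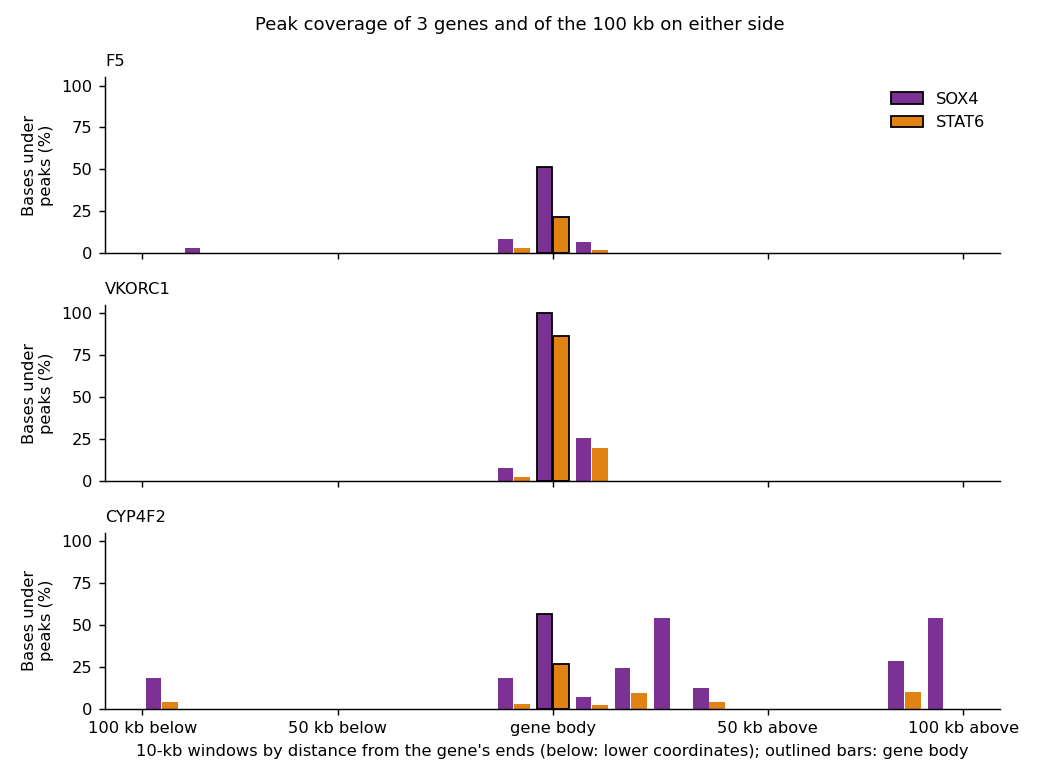
Percent of bases under SOX4 and STAT6 peaks (y axis) in F5, VKORC1 and CYP4F2 (outlined bars) and in 10 kb windows up to 100 kb on either side (x axis). The windows around F5 and VKORC1 are nearly bare apart from those next to the gene, and those around CYP4F2 hold several covered windows.

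F8 encodes factor VIII, the cofactor of factor IXa and a homologue of factor V, and is made mainly by endothelial cells. The gene lies on the minus strand at chrX:154835792-155022723 and is 186932 bp long. Its only SOX4 peak, chrX:155011480-155012143, lay 11 kb from the start, had a fold of 5.10 and ranked 2583 in the list. It covered 0.355% of the gene, and STAT6 peaks came no closer than 289 kb. The genes and pseudogenes annotated inside F8 (H2AB1, F8A1, MIR1184-1, EEF1A1P31 and ZNF622P1) had no peak. Of the 1533 protein-coding genes that were at least as long, 465 (30.3%) had a SOX4 peak. The pair of homologous cofactors F5 and F8 thus differed by 16 peaks to 1 for SOX4 and by 22 to 0 for STAT6.

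The other clotting genes had no peak within 1000 bp. F2 (chr11:46719213-46739506) encodes prothrombin, and its nearest SOX4 peak was 82.3 kb away with a fold of 4.01, the nearest STAT6 peak 6060 kb away. That SOX4 peak lay in ATG13, an autophagy gene and the only protein-coding neighbour of F2 within 100 kb with a peak. F7 (chr13:113105791-113120685) encodes factor VII, which starts clotting together with tissue factor. Its nearest peaks were 163 kb (SOX4) and 31000 kb (STAT6) away, the former in MCF2L, a long neighbouring gene. PROC (chr2:127418427-127429242) encodes protein C, which inactivates factors Va and VIIIa, and its nearest peaks were 724 kb and 33800 kb away. MIR4783 and LOC105373608, which overlap PROC, had none. Among the substrate (F2), the cofactor (F5) and the inhibitor of that cofactor (PROC), only the cofactor gene had peaks. An empty gene is the usual state, since 6.35% of all protein-coding genes had a SOX4 peak and 1.08% a STAT6 peak.

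In the vitamin K cycle VKORC1 and GGCX act in turn, and GGCX was empty, as most genes were. GGCX (chr2:85544720-85561493), the carboxylase that uses reduced vitamin K, had its nearest peaks 2560 kb (SOX4) and 3760 kb (STAT6) away, and MAT2A, which overlaps it, had none. P2RY12 (chr3:151336843-151384753), the receptor blocked by clopidogrel, had them 328 kb and 3960 kb away and lies inside MED12L, a gene of 350990 bp that also had no peak. For P2RY1 (chr3:152835131-152841439), the ADP receptor that raises calcium in platelets, the distances were 275 kb and 5460 kb. Widening the margin to 10000 bp added none of these 6 genes. An empty gene says only that no peak was called there, since the signal below the threshold was not analysed here.

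**Figure D4:**
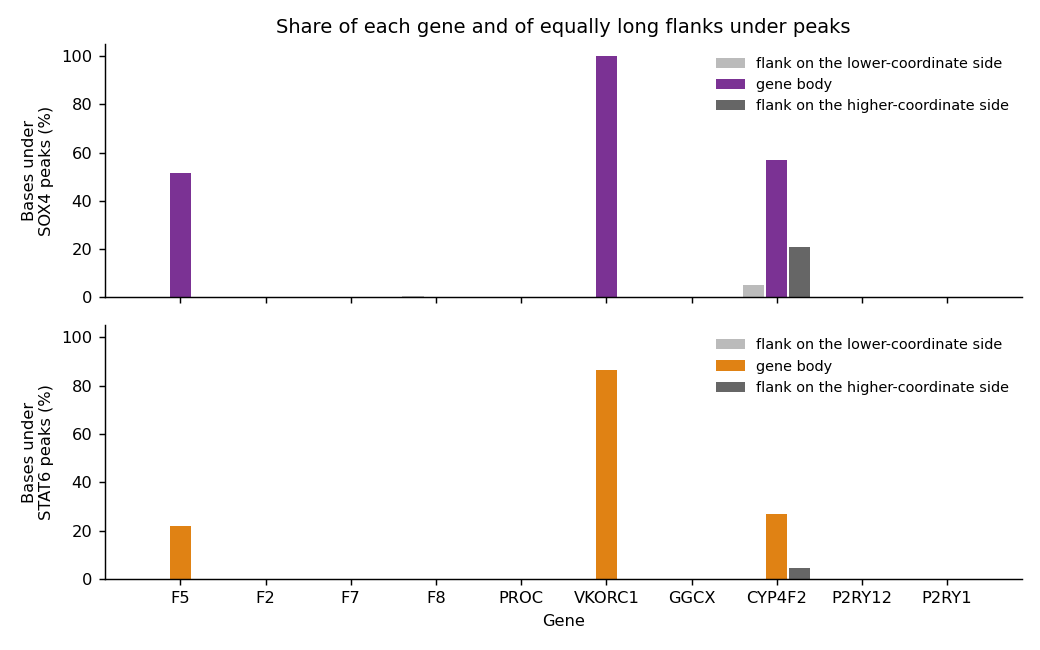
Percent of bases under SOX4 peaks (upper panel) and STAT6 peaks (lower panel) for each of the 10 genes (coloured bars) and for flanks of equal length that began 5000 bp beyond the gene's ends (grey bars). F5, VKORC1 and CYP4F2 stand out in both panels, CYP4F2 alone has visible flanks, and the F8 value of 0.355% is too small to see.

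Genes of the same systems were also counted from fixed lists, which include genes described above. The lists were chosen with earlier results of these data known, so their shares carry no test. Of 23 clotting proteins made by hepatocytes, 3 genes had a SOX4 peak (F5, FGA and PROS1), or 13.04%. A STAT6 peak was present at 2 (F5 and FGA), or 8.70%. Over all protein-coding genes the shares were 6.35% and 1.08%, and with 3 of 23 genes no difference from the first can be read. The STAT6 share rests on F5, which is among the 10 genes, and on FGA alone. The other 20, F2, F7, F9, F10, FGB and FGG among them, had none. FGA, the fibrinogen alpha chain gene, had a SOX4 peak at chr4:154586844-154588689 with a fold of 118 and a STAT6 peak within it with a fold of 9.80. Its partners FGB and FGG, which encode the other chains of fibrinogen, were empty. PROS1, which encodes the protein C cofactor protein S, had 1 SOX4 peak with a fold of 6.56.

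Among 10 clotting genes expressed mainly by other cells, F8 and VWF had a SOX4 peak and VWF alone a STAT6 peak. VWF, the carrier of factor VIII, had 1 peak per list, with folds of 129 and 13.6. Of 8 genes of the vitamin K cycle, VKORC1 and CYP4F2 had peaks in both lists, or 25%, against 1.03% of all protein-coding genes. Both are among the 10 genes described above, and the share rests on them alone. The other 6, GGCX and the VKORC1 paralogue VKORC1L1 among them, had none. None of 16 platelet receptor and adhesion genes and none of 10 P2Y receptor genes had a peak. Over all protein-coding genes the shares were 6.35% for SOX4 and 1.08% for STAT6. Lists of this length are too short to be set apart from such shares. The 8 liver marker genes, ALB and HNF4A among them, had none either, and that list is shorter still. Peaks do not measure expression.

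Over the 10 genes, all 30 STAT6 peaks lay wholly inside SOX4 peaks, against 826 of 1078, or 76.6%, over the whole list. Of these 30 peaks 22 lay in F5, and peaks of the same gene and library are not independent, so no interval is given. Of the 24 SOX4 peaks 21 contained a STAT6 peak, or 87.5%, against 640 of 4513, or 14.2%, that overlapped one over the whole list. These 24 are not independent either, with 16 in F5 and 6 in CYP4F2, and their genes were chosen with earlier results known. The 3 exceptions were the F8 peak and the 2 F5 peaks named above. These 24 peaks were unlike their list, with a median fold of 69.3 (5.88 over the list) and a median width of 1663.5 bp (891 bp). The share among SOX4 peaks of like fold or width was not computed. The 24 SOX4 peaks made up 0.532% of their list and the 30 STAT6 peaks 2.78% of theirs. All 23 SOX4 peaks at F5, VKORC1 and CYP4F2 had a fold of at least 39.4, a level reached by 639 peaks, or 14.2% of the list. The STAT6 peaks there began at 4.01, a level reached by 833 peaks, or 77.3% of the list. Both VKORC1 peaks for STAT6 and the far-end peaks of F5 and CYP4F2 stood in the top 25% of that list, and the other 26 below it. The folds of the lists are not on one scale.

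**Figure D5:**
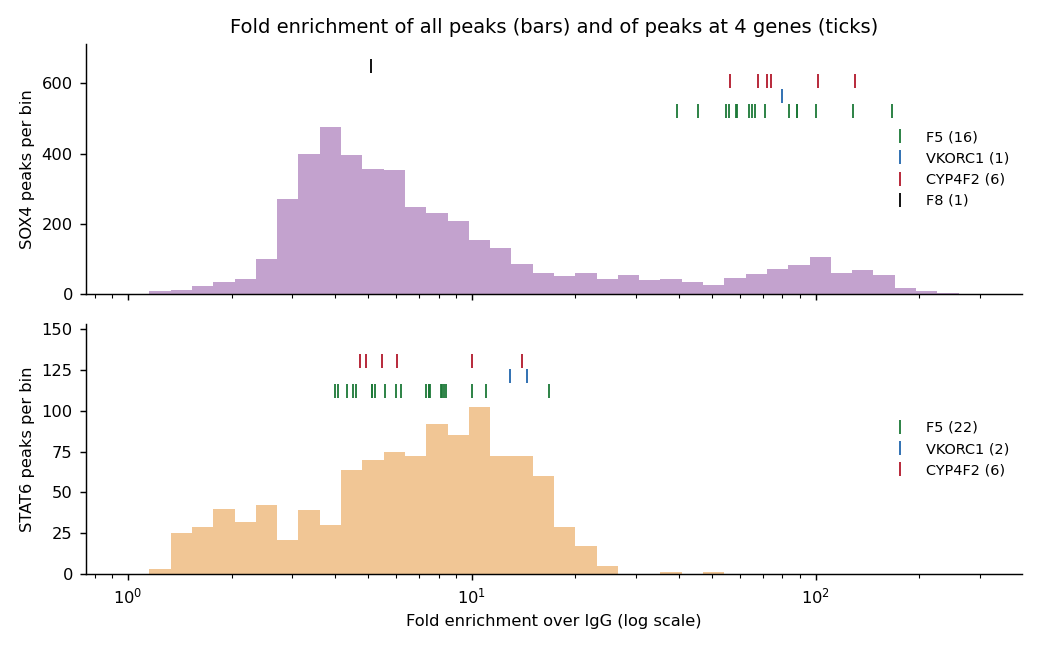
Number of peaks per bin (y axis) by fold enrichment over IgG on a log scale (x axis) for all SOX4 peaks (upper panel) and all STAT6 peaks (lower panel), with a tick for each peak at F5, VKORC1, CYP4F2 and F8. The SOX4 ticks of F5, VKORC1 and CYP4F2 lie at 39.4 and above, in the right tail, the F8 tick lies in the main body, and the STAT6 ticks start at 4.01, with 15 of the 30 at or above the list's median of 7.27 and 15 below it.

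The depth behind these folds could be read from the lists. For 4510 of 4513 SOX4 peaks and 1077 of 1078 STAT6 peaks, the fold and its p-value together gave a whole number of fragments at the summit, within 0.05, and the number expected there from IgG. The relation was inferred from the values and is not stated in the sources. The SOX4 peaks of F5 rested on 268 to 1613 fragments, with a median of 464, against a median of 37 over the list. The STAT6 peaks of F5 rested on 15 to 69 fragments, with a median of 27, against 34.0 over the list. At CYP4F2 the ranges were 345 to 814 (SOX4) and 16 to 52 (STAT6), at VKORC1 there were 826 for SOX4 and 46 and 72 for STAT6, and the F8 peak rested on 27.

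These numbers set the precision of the folds. By an exact Poisson 95% interval on the fragments, the highest SOX4 fold of F5 was 159 to 175 and the next 119 to 137, which do not overlap. The lowest, at 4.02 kb, was 34.8 to 44.4. The highest STAT6 fold of F5 was 12.9 to 21.6 and the second 8.56 to 13.8, which overlap. Whether these folds differ beyond counting error was not tested. The F8 peak was 3.42 to 7.34. The intervals take the IgG level as known and cover counting error only, since copies of a molecule made by PCR are not independent.

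The level expected from IgG also differed between these genes. Its floor was 4.49 fragments for SOX4 and 2.16 for STAT6, and 55.6% and 71.7% of all peaks stood more than 1% above it. At F5, VKORC1 and CYP4F2 all 23 SOX4 peaks and all 30 STAT6 peaks did. For F5 the IgG level was 5.07 to 8.68 (SOX4 list) and 2.44 to 5.39 (STAT6 list), and for VKORC1 it was 9.35 at the SOX4 peak. F8 was at the floor. At F5, VKORC1 and CYP4F2 the IgG level was thus 1.13 to 2.08 times the floor for SOX4 and 1.13 to 2.49 times for STAT6, and its part in the folds was not tested.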

How the data were processed

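CUT&RUN libraries of Hep3B cells (IgG, SOX4 and STAT6 antibody, 1 each) were sequenced as paired-end reads and processed by the authors in Partek Flow. BWA and build hg38 are listed in the submitters' processing notes, and the peak caller, its version and its threshold are not given in the sources used here. The authors deposited, for each antibody, a list of peaks called against IgG. Each deposited peak has a fold enrichment at its summit, which is a ratio to IgG. It also has a p-value and a q-value as −log10. The authors also deposited a score for display, made from the −log10 q, which was not used here. The lowest deposited −log10 q was 1.31 for SOX4 and 1.35 for STAT6. Replicates were not pooled, since there were none.

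From these lists the overlap of peaks with RefSeq genes (GRCh38.p14) was computed with numpy 2.4.6 and pandas 2.3.3 in Python 3.11.15, by at least 1 bp and with a margin of 1000 bp. Coverage is the share of the annotated gene span under the union of peaks, and exon positions were not used here. Shares of the 10 genes and of the gene lists are given without intervals, since these genes were chosen with earlier results known. The Poisson intervals on folds were computed with scipy 1.17.1. Overlap and coverage were checked on simulated peaks. Fragments at summits were recovered from the fold, taken as (fragments + 1) over (IgG level + 1), and from a Poisson p-value, a step added after seeing the data. All 10 genes matched the RefSeq promoter table. The 10 genes and the lists were chosen with earlier results of these data known, and 1 gene of the vitamin K list is not reported here. Named were the 10 genes with their highest or nearest peaks, genes of the lists that held a peak, and neighbours within 100 kb that held a peak or overlapped, and SELP, SLC19A2, PRSS53, the OR10H genes and empty list genes were named after their values were seen. Alternatives changed the margin, the q and fold minimum, the use of summits and the overlap that counts as shared.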

Additional observations from a re-analysis of the deposited data

How the results depend on the processing

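Of 35 alternatives over 8 results, 29 left the value as it was, 6 moved it and 0 reversed it. The counts of genes with peaks, among the 10 genes and among the 23 liver-made clotting genes, were the same with no margin, with a margin of 10000 bp, with a −log10 q or a fold of at least 5 and with summits in place of whole peaks. The F5 coverage followed the peak width: limited to 500 bp on either side of each summit it was 21.0% for SOX4 (51.5% with whole peaks) and 16.2% for STAT6 (21.7%), by construction. With a −log10 q of at least 5, or a fold of at least 5, the STAT6 coverage of F5 was 19.2%, since fewer peaks enter. With an overlap of 50% or more of each peak required, 5 of the 30 STAT6 peaks (16.7%) passed, and 20 (66.7%) had summits within 200 bp, against 100% for any overlap. The cause was not tested, and the SOX4 peaks are the wider ones. Without F5, a setting added after seeing the data, it was 8 of 8.

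No paired analysis was possible because there were no replicates to pair, and the variation between cultures or libraries was not measured. The STAT6 folds rest on few fragments, and the read totals of the libraries are not given in the sources used here.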
